A study of Homo sapiens with 8 samples.

Results

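The forkhead factors described here are the FOXO, FOXK, FOXN and FOXP transcription factors, with FOXJ2 and FOXJ3, named in a list of 10 genes. Members were the rows of the 2 deposited tables whose RefSeq accession maps to one of these symbols, which gave 13 transcripts of 8 genes among 22468 transcripts in all. Of the 13, 12 stood in both tables and 1, a FOXJ3 transcript, in the table of knockdown cells alone. FOXP1 and FOXP4 had no row and were not analysed here.

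The cells were SW480, an established human colorectal adenocarcinoma line that the series text calls breast cancer, and they stably expressed a short hairpin RNA targeting RBMS1, which encodes an RNA-binding protein, (shRBMS1) or a control hairpin (shControl). Each cell population was sequenced at 9 h of alpha-amanitin, given at 10 µg/mL, and at 0 h without it, with 2 libraries for each of the 4 combinations of shRNA and time, 8 libraries in all. Although 2 hairpin clones are named in the series text, the sources used here do not tell which one was sequenced, and effects of the knockdown and of a clone cannot be told apart. Alpha-amanitin binds RNA polymerase II and blocks the making of new mRNA, so a transcript's level at 9 h over that at 0 h follows how much of it was left. The question was which transcripts are more or less stable in the knockdown.

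The authors' deposited tables hold 1 log2 fold change per transcript and cell population, 9 h over 0 h, with the libraries already combined. A negative value means a lower level at 9 h relative to the rest of the library. Depth and the spread between libraries are unknown, so no value below has an error, an n or a p, and no difference could be set against replicate error. The stability difference is shRBMS1 minus shControl for each of the 19334 transcripts in both tables, and it was centred on their median (-0.02). Values at or past 1 in size on the log2 scale, 2-fold, were counted and not tested. Of 15 colon epithelial markers 8 had a row in either table and 6 were in both, CDX2 and EPCAM among them. CDX1, CDH17, LGALS4, TFF3, CEACAM5, CEACAM6 and PHGR1 had no row. Of 10 breast markers KRT5 alone was in both tables, and of 13 fibroblast, immune and endothelial markers CD68 and LYZ.

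Forkhead proteins bind DNA through a winged-helix domain in which a recognition helix enters the major groove. FOXO factors stand at the end of insulin and growth factor signalling: AKT phosphorylates them, 14-3-3 proteins hold them and they leave the nucleus, while unphosphorylated FOXO activates genes of cell cycle arrest, cell death, autophagy and antioxidant defence. FOXK1 and FOXK2 repress autophagy genes and recruit the BAP1 deubiquitinase, and FOXN3 is a repressor known from checkpoint suppression in yeast.

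The recognition helix shows what the measured members share and how far their mRNAs differ within it. The 15 codons around it are given below from the GENCODE 29 transcripts (GRCh38), and capitals mark the 6 codons for asparagine, 2 further residues, arginine, histidine and asparagine.
FOXO1 (chr13:40560828-40665594, minus strand): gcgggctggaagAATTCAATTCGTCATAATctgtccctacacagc
FOXO3 (chr6:108561818-108663487, plus strand): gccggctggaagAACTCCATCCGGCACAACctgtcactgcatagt
FOXK1 (chr7:4755372-4757026, plus strand): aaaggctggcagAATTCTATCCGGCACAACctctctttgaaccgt
FOXK2 (chr17:82571859-82582773, plus strand): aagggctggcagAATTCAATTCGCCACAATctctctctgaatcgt
FOXN2 (chr2:48346674-48346718, plus strand): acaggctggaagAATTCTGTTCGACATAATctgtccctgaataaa
FOXN3 (chr14:89411967-89412011, minus strand): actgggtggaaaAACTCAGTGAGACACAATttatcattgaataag
FOXJ2 (chr12:8040154-8042690, plus strand): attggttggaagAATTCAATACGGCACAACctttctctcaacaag
FOXJ3 (chr1:42265157-42278359, minus strand): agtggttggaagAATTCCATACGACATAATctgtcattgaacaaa
The longer spans are those of FOXO1, FOXO3, FOXK1, FOXK2, FOXJ2 and FOXJ3, in which an intron parts the stretch after base 12, just before the capitals. In FOXN2 and FOXN3 the 45 bases lie within 1 exon. The FOXK1 and FOXK2 stretches were identical at 84.4% of bases, FOXO1 and FOXO3 at 75.6%, FOXJ2 and FOXJ3 at 77.8% and FOXN2 and FOXN3 at 71.1%. Some pairs across subgroups were as alike, with FOXN2 and FOXJ3 at 80% and FOXO1 and FOXN2 at 77.8%.

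FOXN3 and FOXJ3 were also listed with transcripts that differ by a coding exon. These exons are shown because they are the coding difference between transcripts with values of their own. The FOXN3 exon, exon 5 of 7 and 66 bases long, belongs to NM_001085471 and is skipped in NM_005197, and the FOXJ3 exon, exon 6 of 13 and 102 bases long in NM_014947, is skipped in NM_001198852.
FOXN3 (chr14:89190384-89190449, minus strand): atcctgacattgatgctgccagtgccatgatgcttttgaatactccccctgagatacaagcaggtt
FOXJ3 (chr1:42205762-42205863, minus strand): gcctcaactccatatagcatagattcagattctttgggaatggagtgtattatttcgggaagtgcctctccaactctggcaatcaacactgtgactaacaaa
Both lengths are multiples of 3, so skipping leaves the reading frame as it is.

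FOXO1, which promotes gluconeogenesis and cell cycle arrest, had the lowest value of the members in control cells and the second lowest in knockdown cells. The authors' deposited tables give its transcript NM_002015 (chr13:40555667-40666597, 3 exons) at -1.34 in knockdown cells and -1.68 in control cells. Measured against other transcripts, its 9 h level was 39.6% of the 0 h level in knockdown cells and 31.3% in control cells. These percentages depend on the scale and are not the fraction of FOXO1 mRNA remaining. The median of all transcripts was -0.03 in knockdown cells and -0.04 in control cells. Set against ribosomal protein mRNAs, FOXO1 was at -1.72 in knockdown cells and -2.09 in control cells. FOXO1 lay at the percentile 8.32 of all transcripts of the knockdown table and at 5.88 of the control table. Its centred difference was 0.36. That is a ratio of 1.28 between the 9 h over 0 h ratios of knockdown and control cells, and not between their FOXO1 levels.

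FOXO3, a FOXO factor of oxidative stress and apoptosis, had transcripts on opposite sides of 0. In the authors' deposited tables NM_001455 was at 1.81 in knockdown cells and 0.52 in control cells. NM_201559 stood at -1.08 in knockdown cells and -0.58 in control cells in the authors' deposited tables. The transcripts therefore lay 2.88 apart in knockdown cells and 1.10 apart in control cells. Their centred differences were 1.30 and -0.48, and the gene mean of 0.41 describes neither. In GENCODE 29 these transcripts have the same coding exons and share 7121 bases, 97.0% of NM_001455 and 97.4% of NM_201559, and differ in their first exons, with 3′UTRs of 4976 and 4982 bases. FOXO3 also has near-identical copies on chromosome 17, neither of them with a row in either table. FOXO3B has 99.1% identity over 1928 aligned bases and AC026271.3 98.1% over 1833. How the authors' counting shared reads among these is not given, so the values of single FOXO3 transcripts are uncertain.

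**Figure D1:**
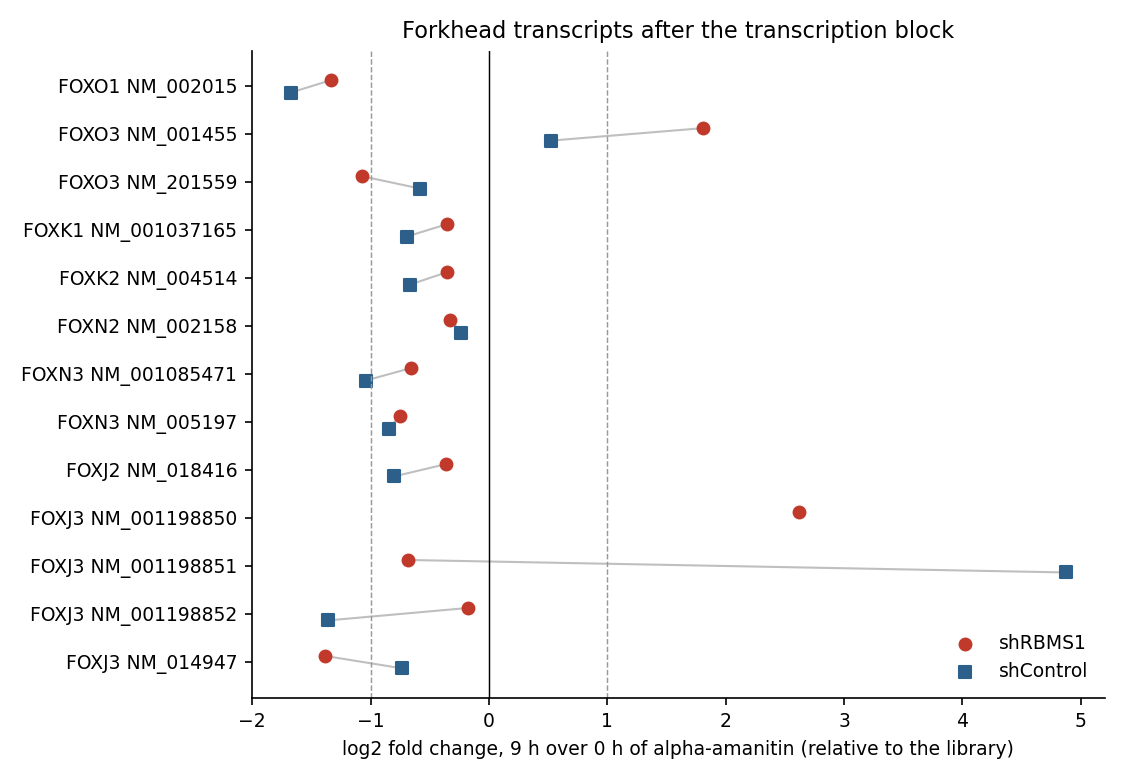
Log2 fold change at 9 h over 0 h of alpha-amanitin (horizontal axis) of each member transcript, with circles for shRBMS1 cells above squares for shControl cells and dashed lines at -1 and 1. A grey line joins the values of a transcript; FOXK1 and FOXK2 sit at nearly the same values, whereas the FOXJ3 transcript NM_001198851 has -0.68 in shRBMS1 cells and 4.87 in shControl cells.

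FOXK1 and FOXK2, close paralogs that repress autophagy genes in fed cells, had nearly equal values in both cell populations. FOXK1 (NM_001037165, chr7:4682309-4771443) was at -0.35 in knockdown cells and -0.70 in control cells in the authors' deposited tables. FOXK2 (NM_004514, chr17:82519715-82604607) stood at -0.35 in knockdown cells and -0.67 in control cells in the authors' deposited tables. Their centred differences were 0.36 and 0.33. These genes lie on different chromosomes and each was listed with 1 transcript. The last exons of FOXK2 overlap AC124283.1, a gene on the opposite strand, by 1190 bases, and whether the counting used strand is not given.

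FOXN2, a forkhead factor of the subgroup of FOXN3, had the value nearest to 0 among the members of control cells. It was at -0.33 in knockdown cells and -0.23 in control cells in the authors' deposited tables (NM_002158, chr2:48314710-48379294). The centred difference of FOXN2 was -0.07. FOXN3 was lower in both cell populations. Its transcript NM_001085471 was at -0.66 in knockdown cells and -1.04 in control cells in the authors' deposited tables. NM_005197, without exon 5, stood at -0.75 in knockdown cells and -0.85 in control cells in the authors' deposited tables. The FOXN3 transcripts lay 0.09 apart in knockdown cells and 0.19 apart in control cells. In GENCODE 29 they share 31.3% of the bases of NM_001085471 and 91.0% of those of NM_005197. Their 3′UTRs are 6242 and 1029 bases long. How shared reads were divided between them is not given. Over the 4408 genes with several shared transcripts, whatever their number, the median range was 0.98 in knockdown cells and 0.94 in control cells. The centred differences of the FOXN3 transcripts were 0.40 and 0.11. An opposite-strand gene, AL138478.1, overlaps NM_001085471 by 832 bases, and AL137230.2, on the same strand, overlaps both FOXN3 transcripts by 179 bases. A copy on chromosome X, FOXN3P1, matches FOXN3 at 90.5% over 1495 bases.

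FOXJ2, a transcriptional activator, was at -0.36 in knockdown cells and -0.81 in control cells in the authors' deposited tables (NM_018416, chr12:8032703-8055503). Its centred difference of 0.46 was the highest among members with 1 listed transcript.

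FOXJ3, known in mouse for muscle fibre identity, had the widest range among shared transcripts of the members in control cells, whereas in knockdown cells that of FOXO3 was wider. In the authors' deposited tables NM_014947 was at -1.38 in knockdown cells and -0.73 in control cells. NM_001198852, without the exon shown above, stood at -0.18 in knockdown cells and -1.36 in control cells in the authors' deposited tables. The order of these transcripts was thus turned round between the cell populations. All 5106 bases of NM_001198852 are shared with NM_014947, which has 119 bases of its own. How the authors' counting divided shared reads among FOXJ3 transcripts is not given, so their single values are uncertain. Whether the skipped exon bears on this order was not tested. NM_001198851 was at -0.68 in knockdown cells and 4.87 in control cells in the authors' deposited tables, and NM_001198850 at 2.62 in the knockdown table alone. The centred differences of the 3 shared transcripts were -0.63 for NM_014947, 1.20 for NM_001198852 and -5.54 for NM_001198851. FOXJ3 had a range of 6.24 among shared transcripts in control cells, at the percentile 95.3 of the 4408 genes, and of 1.21 in knockdown cells, at the percentile 58.1. A range can only widen as transcripts are added, and these percentiles were not matched for the number of shared transcripts, 3 in FOXJ3. Its gene mean of -1.66 for the difference rests on NM_001198851 and was 0.28 without it. NM_001198851 shares 94.4% of its bases with NM_014947 and has the same coding exons, and these transcripts differ in their 5′ exons, with 3′UTRs of 3171 and 3165 bases.

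**Figure D2:**
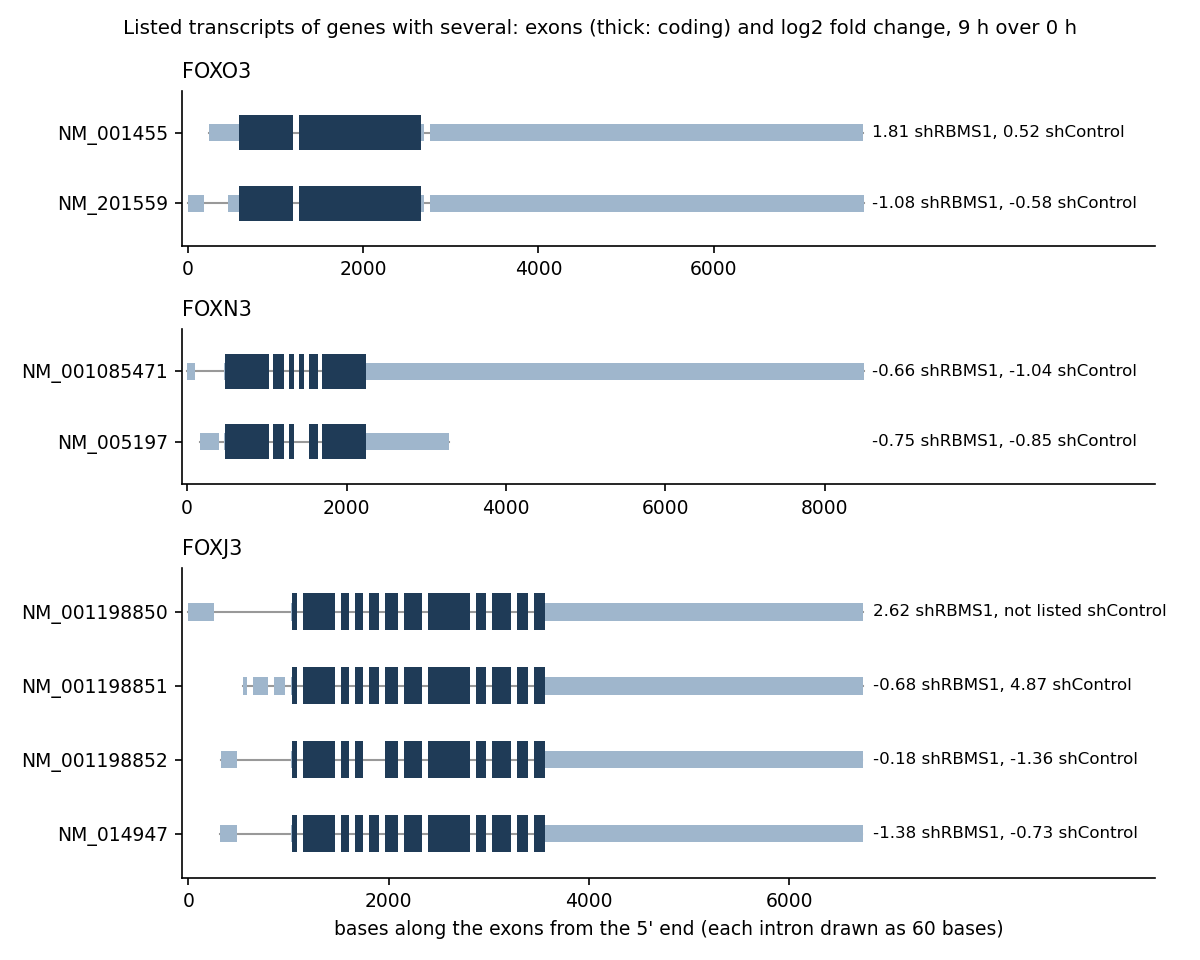
Exons of the listed transcripts of FOXO3, FOXN3 and FOXJ3 in GENCODE 29, along the bases from the 5′ end with each intron drawn as 60 bases; thick blocks are coding, and the log2 fold change at 9 h over 0 h stands at the right for shRBMS1 and shControl cells. The FOXN3 transcripts differ most in length and least in value, and 91.0% of the bases of the shorter one are shared. The FOXO3 and FOXJ3 transcripts share nearly all their bases.

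Over the members as a list, 3 of 13 transcripts lay at -1 or below in knockdown cells, where 12.9% of all transcripts did, and 2 of 13 at 1 or above, where 8.65% did. In control cells 3 of 12 lay at -1 or below, against a background of 13.8%, and 1 of 12 at 1 or above, against 8.32%. The transcripts at -1 or below were FOXO1, FOXO3 NM_201559 and FOXJ3 NM_014947 in knockdown cells and FOXO1, FOXN3 NM_001085471 and FOXJ3 NM_001198852 in control cells, so FOXO1 was the one in both. The median of the members was -0.36 in knockdown cells and -0.71 in control cells, beside -0.03 for all transcripts in knockdown cells and -0.04 in control cells. Below 0 were 11 of 13 in knockdown cells and 10 of 12 in control cells, beside 10677 of all 20474 in knockdown cells and 11168 of all 21328 in control cells. The order of the genes with 1 listed transcript, low to high, was FOXO1, FOXJ2, FOXK2, FOXK1 and FOXN2 in knockdown cells and FOXO1, FOXJ2, FOXK1, FOXK2 and FOXN2 in control cells. In knockdown cells the 4 genes above FOXO1 lay between -0.36 and -0.33, too close for an order to be read.

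The centred difference was above 0 for 8 of 12 shared transcripts, with a median of 0.35, beside a median of 0.00 for all by construction. Past 1 were 2 higher, FOXO3 NM_001455 and FOXJ3 NM_001198852, against a background of 8.98%, and 1 lower, FOXJ3 NM_001198851, against 8.65%. All 3 belong to genes with several listed transcripts, of which 25.7% of transcripts in the whole series lay past 1 in either direction. Among genes with 1 listed transcript the share was 4.52%, and 0 of the 5 members of that kind were past 1.

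FOXO1, FOXK1, FOXK2 and FOXJ2 had centred differences between 0.33 and 0.46, with higher values in the knockdown. Among the 7286 transcripts of genes with 1 listed transcript, whose quartiles were -0.14 and 0.18, they lay at the percentiles 86.3, 86.5, 85.3 and 90.2, and FOXN2 at 35.4. Relative to ribosomal protein mRNAs their differences were 0.38, 0.39, 0.36 and 0.49. By their control values these 4 were low among the same 7286 transcripts, at the percentiles 2.18, 16.8, 17.9 and 13.1, with FOXN2 at 39.1. The control value enters the difference with a minus sign, and transcripts of like control value were not compared. None of these 4 came near a size of 1, and without replicate values none can be called.

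**Figure D3:**
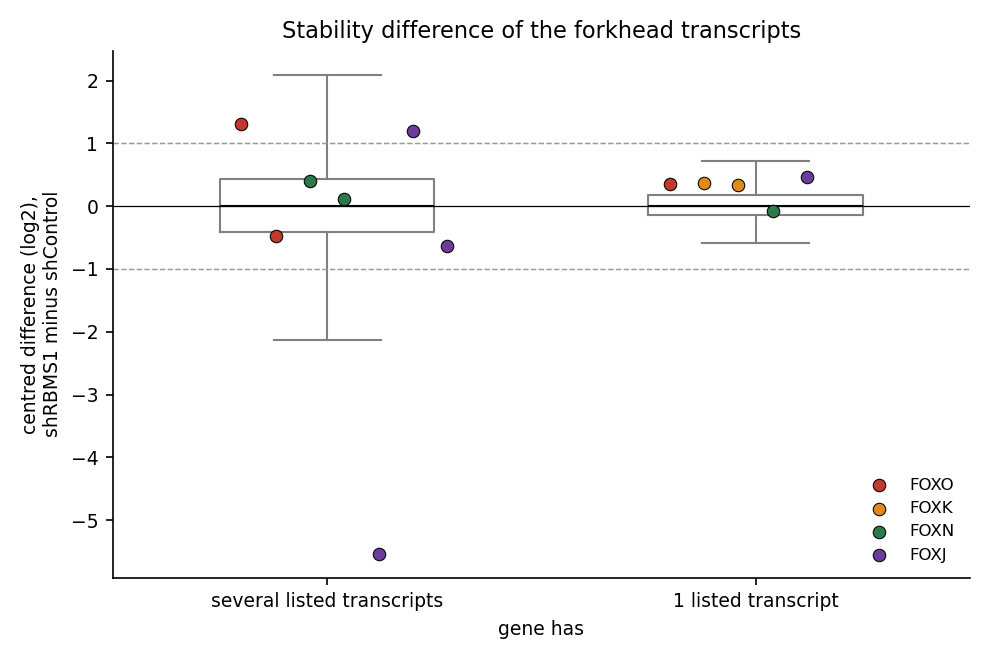
Centred stability difference, shRBMS1 minus shControl, on the log2 scale (vertical axis), for genes with several and with 1 listed transcript. Boxes give the quartiles and whiskers the percentiles 5 and 95 of all shared transcripts, points are the member transcripts; those of genes with several transcripts reach from -5.54 to 1.30, and those of genes with 1 from -0.07 to 0.46.

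**Figure D4:**
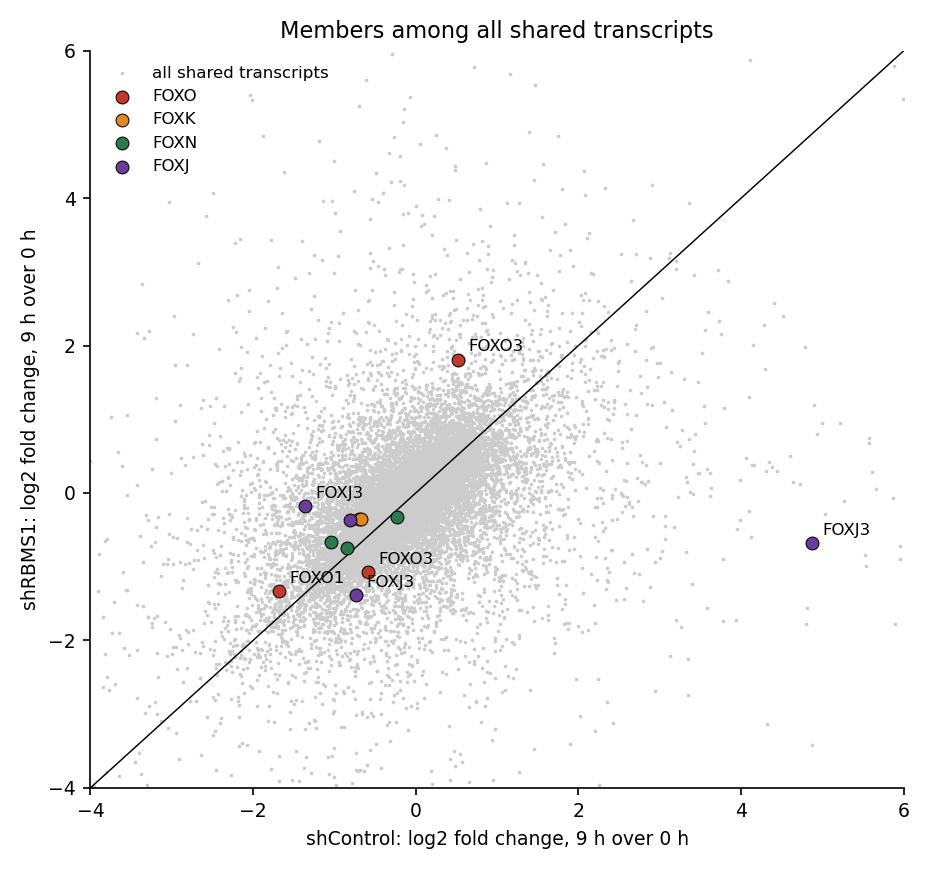
Log2 fold change at 9 h over 0 h in shRBMS1 cells (vertical axis) against shControl cells (horizontal axis) for all shared transcripts (grey) and the member transcripts (coloured by subgroup), with the line of equal values. FOXO1, FOXK1, FOXK2, FOXJ2 and both FOXN3 transcripts lie at negative values in both cell populations and just above the line. Farther above it lie a FOXO3 transcript, at 1.81 in shRBMS1 and 0.52 in shControl cells, and a FOXJ3 transcript, at -0.18 and -1.36. FOXN2 and another transcript each of FOXO3 and FOXJ3 lie at negative values below the line. A further FOXJ3 transcript lies far to its right, and 461 shared transcripts fall outside the plotted range.

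The 3′UTR is the part of an mRNA in which many stability elements lie. The longest annotated 3′UTR of each of the 8 genes ran from 2653 bases in FOXJ2 to 8979 in FOXK1, all above the upper quartile of 2388 bases over 10976 genes. The FOXN3 transcript NM_005197, with a 3′UTR of 1029 bases, was below the median of 1111 bases. Along these, 4 motifs were counted on the transcript strand, with T written for U. ATTTA, the core of AU-rich elements, was in all 8 and in 70.0% of all 3′UTRs. TATTTAT, which contains ATTTA, was in 5 of 8 and in 32.7% of all. ATATA, a motif that RBMS family proteins bind in vitro, was in 7 of 8, FOXK2 being the exception, and in 58.5% of all. TGTANATA, the site of Pumilio proteins, which promote mRNA decay, was in 6 of 8, without FOXK1 and FOXK2, and in 27.4% of all. ATATA can lie inside TGTANATA, as in TGTATATA. Longer 3′UTRs have more room for any motif, and these counts are not adjusted for length. Densities are given below for some members and motifs only.

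FOXO1 held 4 matches of TGTANATA, 1.18 per kb, beside an upper quartile of 0.22 per kb over all 3′UTRs, and no TATTTAT. Whether these matches bear on the values of FOXO1 was not tested. The 4 windows of 30 bases are shown with the match in capitals, at 222, 330, 1858 and 3265 bases after the stop codon.
FOXO1 (chr13:40558809-40558838, minus strand): ttatgtgctgcTGTAGATAaggactgtgcc
FOXO1 (chr13:40558701-40558730, minus strand): ctttcaagtttTGTATATAagcagtagata
FOXO1 (chr13:40557173-40557202, minus strand): tctaatttttcTGTATATAgcccacatcac
FOXO1 (chr13:40555766-40555795, minus strand): aaagccataaaTGTACATAaattatgttta
FOXJ3 held 5 such matches, 1.58 per kb. Its transcripts, whose 3′UTRs are 3165 and 3171 bases long, had the values given above.

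TATTTAT is shown once for each member that holds it, at the match nearest to the stop codon. The FOXN3 match is in NM_001085471, and NM_005197 ends before it and before the other TATTTAT and TGTANATA matches of FOXN3.
FOXK1 (chr7:4769261-4769290, plus strand): agccgtgaatgTATTTATttgctttggtga
FOXK2 (chr17:82602874-82602903, plus strand): catcataacatTATTTATttaaatgtagtt
FOXN2 (chr2:48378759-48378788, plus strand): tgtagtaaaaaTATTTATtgaaaggtgaat
FOXN3 (chr14:89159858-89159887, minus strand): tacttccagcaTATTTATtcagggtgtagg
FOXJ3 (chr1:42179009-42179038, minus strand): ggatcatagagTATTTATgtctgcttttct
FOXN2 had the 3′UTR richest in A and T of the members, 69.5%, with 14 ATTTA at 3.64 per kb and 19 ATATA at 4.93 per kb, beside medians of 1.64 and 0.78 per kb over all. FOXK1 had 45.4% A and T, 0.56 ATTTA per kb and 0.11 ATATA per kb. A match describes letters in the annotation and is not a measured site.

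The lists that follow are by gene, as the mean over the transcripts in both tables. On that scale 4.89% of all 12484 genes were past 1 upward in the centred difference and 4.17% downward, and 9.2% lay at -1 or below in knockdown cells and 9.73% in control cells. The centred difference was above 0 in 6271 of the 12484 genes. Of 34 other forkhead genes 10 were in both tables, with gene medians of -0.75 in knockdown cells and -0.63 in control cells. FOXQ1, a forkhead factor of epithelial tumours, was at -1.45 in knockdown cells and -1.67 in control cells in the authors' deposited tables, close to FOXO1. FOXO4, the third FOXO factor measured, was at -0.69 in knockdown cells and 0.20 in control cells in the authors' deposited tables. Another FOXO4 transcript stood in the authors' deposited table of control cells alone, at -6.85. The centred difference of FOXO4 was -0.87. The highest centred difference of these 10 was 0.61 for FOXF2 and the lowest -2.14 for FOXM1, the mitotic forkhead factor. As for FOXJ3, a single FOXM1 transcript weighed on that mean, at -3.23 in knockdown cells and 6.89 in control cells in the authors' deposited tables. Their median centred difference was -0.16, with 4 of 10 above 0.

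The signalling genes upstream of FOXO, from the insulin receptor to AKT, had gene medians of -0.26 in knockdown cells and -0.26 in control cells over 19 of 20 genes. None was past 1 downward in the difference and 1 was upward, PIK3CB, a catalytic subunit of PI3K, at -0.12 in knockdown cells and -1.25 in control cells in the authors' deposited tables. The lowest was AKT1 with a centred difference of -0.70 as the mean of 3 transcripts. The median centred difference was 0.14, with 14 of 19 above 0.

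FOXO cofactors and modifiers, the 14-3-3 proteins, acetylases and kinases that act on FOXO, had medians of 0.09 in knockdown cells and 0.07 in control cells over 25 genes. The centred difference was past 1 upward in 1, the acetylase EP300, at -0.32 in knockdown cells and -1.68 in control cells in the authors' deposited tables. It was past 1 downward in 3, the lowest being DYRK1A, a kinase, at -2.43 as the mean of 3 transcripts. NM_101395 weighed most on it, at -5.99 in knockdown cells and 0.36 in control cells in the authors' deposited tables. Their median difference was 0.05, with 15 of 25 above 0.

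FOXO target genes had medians of -0.59 in knockdown cells and -0.53 in control cells over 24 of 26 genes, and 7 lay at -1 or below in each, by gene means. None was past 1 upward in the difference; the highest was SESN2, a stress-induced sestrin, at -0.90 in knockdown cells and -1.72 in control cells in the authors' deposited tables. The 1 past 1 downward was BCL2L11, which encodes the death protein BIM, at 0.27 in knockdown cells and 3.62 in control cells in the authors' deposited tables for NM_207002. Another BCL2L11 transcript, NM_138621, had a row for control cells alone in the authors' deposited tables, at 0.68. Their median difference was -0.03, with 11 of 24 above 0.

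Partners of FOXK, FOXN and FOXP, corepressors and the BAP1 complex, had medians of 0.22 in knockdown cells and -0.09 in control cells over 25 of 26 genes. The centred difference was past 1 upward in 4 and downward in 0, with 18 of 25 above 0 and a median of 0.12. The highest was the corepressor CTBP1 at 1.53, as the mean of 2 transcripts. That mean rests on NM_001328, at 4.85 in knockdown cells and 1.75 in control cells in the authors' deposited tables, while NM_001012614 was at -0.17 in knockdown cells and -0.08 in control cells. BAP1 itself was at 0.24 in knockdown cells and 0.19 in control cells in the authors' deposited tables.

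**Figure D5:**
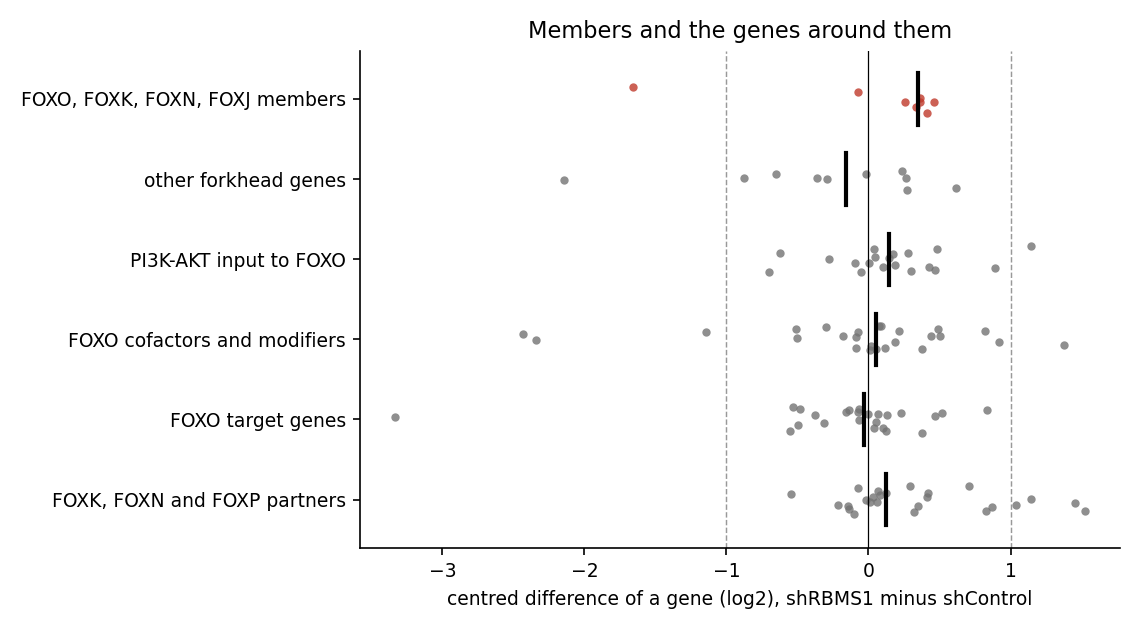
Centred stability difference of each gene as the mean over its shared transcripts, shRBMS1 minus shControl, on the log2 scale (horizontal axis), for the 8 measured members and the lists around them; black bars are medians and dashed lines mark -1 and 1. Of the members 6 of 8 lie between 0.26 and 0.46, FOXN2 at -0.07 and FOXJ3 at -1.66.

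By Euclidean distance over the values of both cell populations, the genes most like the median of the member genes (-0.36 in knockdown cells and -0.68 in control cells) were TRIM35, HSPBAP1 and GLCCI1, at distances of 0.022 to 0.028 among 6285 protein-coding genes with 1 listed transcript.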

How the data were processed

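Total RNA of SW480 cells was depleted of ribosomal RNA and made into ScriptSeq libraries, per the labels' protocols. The submitters' processing notes name STAR 2.5, Cufflinks, Cuffdiff and the build hg38, and assign them no steps. The authors deposited 2 tables of log2 fold change per RefSeq transcript; base 2 was taken because Cuffdiff writes it, and the direction from MYC, FOS and JUN, short-lived mRNAs with values of -1.38, -1.24 and -0.81 in knockdown and -1.44, -1.61 and -1.01 in control cells. The sources used here give neither the normalisation nor the rule that left transcripts out. Depth is unknown, and p-values, counts or columns per library were not used here.

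Accessions were matched to symbols by RefSeq (GRCh38.p14) for 22132 transcripts and GENCODE 29 for 212; 124 were left without. Structures and sequences came from GENCODE 29, copies from blastn 2.17.0 (at least 90% identity over 500 bases). The code was tested on simulated data. No test was run: with 1 value per transcript, medians, percentiles and counts describe these libraries. All members were named, from each list the highest and lowest centred difference of a gene mean (1 of these is not reported here), and BAP1, FOXQ1 and FOXO4 after their values were seen. The members and lists were chosen with earlier results of these data known. The alternatives were another size, coding accessions, other scales and centres, gene means, and leaving out outer values.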

Additional observations from a re-analysis of the deposited data

How the results depend on the processing

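No paired analysis was possible because the deposited values combine the libraries, and leaving out a replicate could not be run for the same reason. The 3 member transcripts at -1 or below became 6 in knockdown and 9 in control cells with a size of 0.5, 6 and 8 relative to ribosomal protein mRNAs (medians -0.74 and -1.12), and 1 in each by gene means. At 1 or above, 1 was left in knockdown cells among transcripts in both tables (median -0.51), 0 in each cell population by gene means, and 2 in control cells with a size of 0.5. The 3 differences past 1 (2 higher, 1 lower) became 1 by gene means (0 higher), 0 in either direction by gene medians, by the least changing transcript of a gene (median 0.22) and, in an alternative added after seeing the data, among genes with 1 listed transcript; 2 were lower with a size of 0.5. The range of FOXJ3 in knockdown cells was 4.0 with all listed transcripts. No median changed sign under the alternatives run. The FOXJ3 and FOXO3 differences past 1 rest on single transcripts whose read support is unknown.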
